A study of Mus musculus with 2 samples.

Results

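The collagen genes of mouse lung are described here in polyA mRNA sequencing of the lung of 1 adult female C57BL/6J mouse, 10 weeks old. The animal carried no labelled allele and received no labelled treatment. It was sequenced in 2 libraries, which the labels call technical replicate 2 and technical replicate 1 of biological replicate 1, and the labels add that replicate 2 was made later. Both libraries belong to 1 group, so the data hold no comparison of conditions, and the only contrast is replicate 2 over replicate 1. Members were all protein-coding genes whose mouse symbol is Col, a number, a and a number, which gave 44 genes among 21474 protein-coding genes. The rule used symbols alone and no measured value, but it was set with earlier results of these data known.

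Collagens are the main structural proteins of the extracellular matrix. Each chain repeats a triplet of glycine and 2 further residues, often proline, and chains wind in groups of 3 into a triple helix. Fibrillar collagens build the tension-bearing fibres of airway, vessel and alveolar walls, type 4 collagens build the basement membranes under epithelium and endothelium, and the remaining types form short-chain networks, beaded filaments, fibril surfaces or transmembrane proteins. In whole tissue, fewer cells of a type and less RNA per cell cannot be told apart.

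Levels are given in TPM, the authors' transcript abundance corrected for length. In both libraries Col3a1 was the highest collagen, and together the members made up little of the lung's mRNA. The 44 genes took 0.0681% of all TPM in replicate 2, against 0.0589% in replicate 1, averaging 0.0635% ± 0.0065 (SD, n = 2 technical libraries). Set against the TPM of nuclear protein-coding genes alone, their share was 0.0737% in replicate 2, against 0.0893% in replicate 1, so the library with the higher share depends on the denominator. A TPM of at least 1 was reached by 23 members in both libraries, by 5 more in replicate 2 and by no further member in replicate 1, and 16 stayed below 1 in both. Replicate 2 had 17110893 counts and replicate 1 had 16104453, so 3 counts, the floor used for a gene at 0, corresponded to 0.175 and 0.186 CPM, the counts scaled to library size. The secretoglobin Scgb1a1, a club cell product, took 174260 TPM in replicate 2, against 17498 TPM in replicate 1, and its part in the TPM of other genes was not tested.

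The makeup of the collagen pool differed between the libraries. Fibrillar genes summed to 241 TPM in replicate 2, against 298 TPM in replicate 1, which was 35.4% and 50.5% of collagen TPM. Type 4 genes summed to 188 TPM in replicate 2, against 148 TPM in replicate 1. The short-chain network genes summed to 5.77 TPM in replicate 2, against 11.1 TPM in replicate 1. All other types summed to 246 TPM in replicate 2, against 133 TPM in replicate 1. By counts, all other types had 14055 in replicate 2, against 4193 in replicate 1, fewer than the fibrillar genes in both libraries, at 19139 in replicate 2, against 17965 in replicate 1. Models other than protein-coding ones held 18.7 TPM of Col6a3 in replicate 2, against 12.9 TPM in replicate 1. For Col16a1 they held 12.4 TPM in replicate 2, against 5.11 TPM in replicate 1, which was 63.4% and 100% of its TPM. Over all 44 members the order of TPM in both libraries gave a Spearman correlation of 0.862, and over the 25 with a mean TPM of at least 1 it was 0.593, against 0.503 over all genes at that level. These are descriptions across genes of libraries that share 1 animal.

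**Figure D1:**
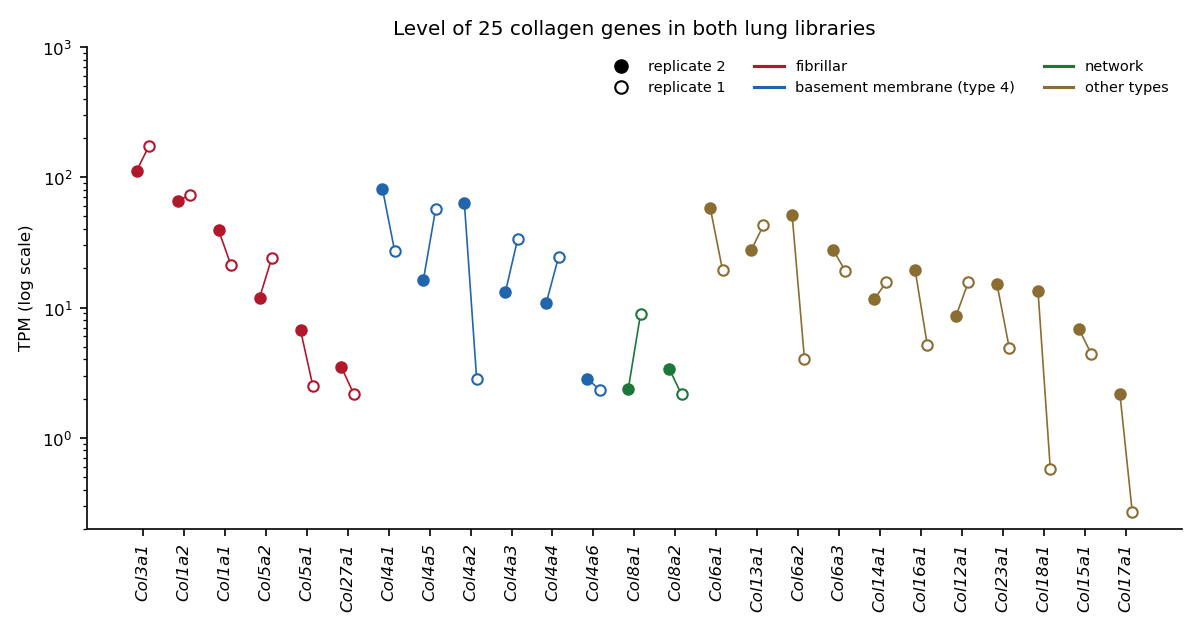
TPM on a log axis of the 25 collagen genes with a mean of at least 1, by structural group; filled points are replicate 2, open points are replicate 1, and lines join the libraries of a gene. Col3a1 sits highest in both libraries, while Col4a2, Col6a2 and Col18a1 span the long lines, at 63.3, 51.0 and 13.5 TPM in replicate 2 and 2.81, 4.03 and 0.58 TPM in replicate 1.

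Stretches of the triple helix are shown for 3 members with a ratio of replicate 2 over replicate 1 below 1 (Col3a1, Col4a3, Col4a5) and 3 with ratios above 10 (Col4a2, Col6a2, Col18a1), chosen after their values were seen, since the ratio between the libraries followed base composition, as given further on. Each is the 54-base stretch within 1 exon whose GC content was nearest to that of the gene's whole helix, from GENCODE M21 on GRCm38, and capitals mark the glycine codon that opens each triplet. The stretches are not aligned with each other.
Col3a1: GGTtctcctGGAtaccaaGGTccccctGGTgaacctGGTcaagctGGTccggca
Col4a3: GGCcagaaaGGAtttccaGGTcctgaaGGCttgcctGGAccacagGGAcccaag
Col4a5: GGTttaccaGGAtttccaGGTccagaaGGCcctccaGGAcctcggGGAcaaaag
Col4a2: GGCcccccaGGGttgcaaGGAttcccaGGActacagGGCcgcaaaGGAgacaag
Col6a2: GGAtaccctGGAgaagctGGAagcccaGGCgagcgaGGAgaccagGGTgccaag
Col18a1: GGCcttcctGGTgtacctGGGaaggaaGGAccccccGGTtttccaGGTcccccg

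They lie on the GRCm38 assembly at chr1:45325805-45325858 (plus strand, exon 7 of Col3a1-201), chr1:82643245-82643298 (plus strand, exon 3 of Col4a3-201), chrX:141545700-141545753 (plus strand, exon 3 of Col4a5-202), chr8:11398698-11398751 (plus strand, exon 5 of Col4a2-201), chr10:76610160-76610213 (minus strand, exon 12 of Col6a2-201) and chr10:77077684-77077737 (minus strand, exon 12 of Col18a1-201). All are coding. The first and second bases of a glycine codon are always G, so the codons differ only in the last base: it was G or C in none of the 6 codons shown for Col3a1, in 2 for Col4a3, in 1 for Col4a5, in 3 for Col4a2, in 1 for Col6a2 and in 2 for Col18a1. The longest unbroken run of triplets was 344 in the fibrillar chain Col3a1, 66 in the interrupted helix of the type 4 chain Col4a2 and 30 in Col18a1.

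Among the fibrillar genes, the chains of types 3 and 1 led. Col3a1, whose chains form the type 3 homotrimer found with type 1 in extensible tissue, had 112 TPM in replicate 2, against 174 TPM in replicate 1. Col1a2, the α2 chain of type 1, had 65.4 TPM in replicate 2, against 73.6 TPM in replicate 1. Col1a1, its α1 chain, had 39.2 TPM in replicate 2, against 21.3 TPM in replicate 1. The type 1 molecule holds more α1 than α2 chains, yet Col1a1 was below Col1a2 in both libraries, at 0.600 times its TPM in replicate 2 and 0.289 times in replicate 1.

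Type 5 chains sit in the core of type 1 fibrils and limit their diameter. Col5a2 had 11.9 TPM in replicate 2, against 24.1 TPM in replicate 1, and Col5a1 had 6.71 TPM in replicate 2, against 2.51 TPM in replicate 1, so these chains went in opposite directions. Col27a1, a fibrillar chain best known from cartilage, had 3.47 TPM in replicate 2, against 2.17 TPM in replicate 1. The other 5 fibrillar genes averaged below 1 TPM. Of these, Col5a3 had 109 counts in replicate 2 and 3 in replicate 1, Col11a2 had 38 and 5, Col24a1 had 4 and 6, and Col11a1 had 1 in each. Col2a1, the main cartilage collagen, had 3 counts in replicate 2 and 0 in replicate 1.

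The type 4 genes split into the chains of ordinary basement membrane and those of the specialised network of alveolus and glomerulus, whose loss causes Alport syndrome in humans. Col4a1 had 81.6 TPM in replicate 2, against 27.0 TPM in replicate 1. Its partner Col4a2 had 63.3 TPM in replicate 2, against 2.81 TPM in replicate 1, from 6211 and 197 counts. The chains assemble together, but the ratio of Col4a1 to Col4a2 was 1.29 in replicate 2 and 9.59 in replicate 1. The genes lie head to head on chromosome 8 and their annotated ends overlap by 22 bases.

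Chains of the specialised network were lower in replicate 2. Col4a3 had 13.1 TPM in replicate 2, against 33.6 TPM in replicate 1. Its head-to-head neighbour Col4a4, 71 bases away on chromosome 1, had 10.9 TPM in replicate 2, against 24.6 TPM in replicate 1. The X-linked Col4a5 had 16.4 TPM in replicate 2, against 57.3 TPM in replicate 1. The proportions among these 3 genes differed less between the libraries than that of Col4a1 to Col4a2: Col4a3 was 1.20 times Col4a4 in replicate 2 and 1.37 times in replicate 1, and 0.800 and 0.587 times Col4a5. Col4a6, which pairs with Col4a5 in smooth muscle basement membrane, had 2.85 TPM in replicate 2, against 2.33 TPM in replicate 1.

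The short-chain network genes were low. Col8a1, a chain of the type 8 network of vessel walls, had 2.37 TPM in replicate 2, against 8.93 TPM in replicate 1. Col8a2, its partner, had 3.38 TPM in replicate 2, against 2.15 TPM in replicate 1, so the higher of these chains differed between the libraries. Col10a1, the collagen of hypertrophic cartilage, had 1 count in each library.

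Type 6 chains, which form beaded filaments between cells and fibres, summed to 138 TPM in replicate 2, against 42.7 TPM in replicate 1. Col6a1 had 58.3 TPM in replicate 2, against 19.4 TPM in replicate 1. Col6a2, which is needed with Col6a1 and another chain for assembly, had 51.0 TPM in replicate 2, against 4.03 TPM in replicate 1. Col6a3 had 27.7 TPM in replicate 2, against 19.0 TPM in replicate 1. The ratio of Col6a1 to Col6a2 was thus 1.14 in replicate 2 and 4.82 in replicate 1. Col6a4, Col6a5 and Col6a6 lay between 0.06 and 0.31 TPM in replicate 2 and between 0.01 and 0.17 TPM in replicate 1.

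Fibril-associated collagens coat the surface of fibrils. Col14a1 had 11.5 TPM in replicate 2, against 15.7 TPM in replicate 1, Col12a1 had 8.60 and 15.7 TPM, and Col16a1 had 19.6 and 5.11 TPM. Of the other 6 of this class, Col20a1 had 45 counts in replicate 2 and 0 in replicate 1, Col9a3 had 16 and 3, and Col9a1, Col9a2, Col19a1 and Col22a1 had at most 4 in any library. The transmembrane Col13a1, found at cell adhesion sites, had 27.6 TPM in replicate 2, against 42.8 TPM in replicate 1. Col23a1, another transmembrane collagen, had 15.1 TPM in replicate 2, against 4.87 TPM in replicate 1. Col17a1, the hemidesmosome collagen of basal cells, had 2.17 TPM in replicate 2, against 0.27 TPM in replicate 1, and Col25a1 had 8 counts in replicate 2 and 11 in replicate 1.

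The basement membrane zone also holds Col18a1 and Col15a1, proteoglycan collagens whose C-terminal ends release endostatin and a related fragment. Col18a1 had 13.5 TPM in replicate 2, against 0.58 TPM in replicate 1, from 946 and 13 counts. Col15a1 had 6.82 TPM in replicate 2, against 4.41 TPM in replicate 1. Col7a1, the anchoring fibril of skin, had 122 counts in replicate 2 and 0 in replicate 1. With the floor of 3 counts in place of the 0, Col7a1 was 31.9-fold higher in replicate 2. This is not a minimum, since its exact interval for counting error began lower, at 25.6-fold. Its mean TPM was only 0.49, and its posterior mean TPM was 2.42 in replicate 2, against 2.01 in replicate 1. Of the remaining members, Col28a1 had 10 counts in replicate 2 and 15 in replicate 1, and Col26a1 had 7 and 2.

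For the difference between libraries, counts scaled by edgeR's TMM factors were compared and a gene was called when the ratio passed 2-fold. With 1 library on each side the difference has no replicate check, no p-value is given, and 95% exact intervals cover counting error alone. Of the 25 members that averaged 1 TPM or more, 11 passed 2-fold upward in replicate 2, or 44% against 39.3% of all 14139 genes tested. Another 4 passed it downward, or 16% against 28.2% of all genes, and 10 lay within 2-fold. The share called higher is near that of all genes. The median log2 ratio was 0.89 for members and 0.19 for all genes tested.

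The members called higher in replicate 2 were Col18a1, Col4a2, Col6a2, Col16a1, Col17a1, Col4a1, Col6a1, Col23a1, Col5a1, Col15a1 and Col1a1. Col18a1 was 57.1-fold higher by counts (33.2 to 108), a log2 ratio of 5.78 against 4.52 on the TPM scale, Col4a2 24.8-fold higher (21.5 to 28.7) and Col6a2 12.8-fold higher (11.1 to 14.9). Col4a1 was 3.35-fold higher (3.19 to 3.52) and Col6a1 3.32-fold higher (3.08 to 3.58). Col1a1 was near the threshold at 2.04-fold (1.92 to 2.18), and came within 2-fold with DESeq2 size factors and on the TPM scale. Col15a1 was 2.56-fold higher by counts, but its log2 ratio on the TPM scale was 0.63, within 2-fold.

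The 4 members called lower were Col8a1, Col4a5, Col4a3 and Col4a4, at log2 ratios of -1.77, -1.25, -1.22 and -1.08. The scaled level of Col8a1 in replicate 2 was thus 0.294 times that in replicate 1 (0.246 to 0.348), and that of Col4a5 0.420 times (0.390 to 0.451). By total counts in place of TMM factors the 3 type 4 genes came within 2-fold and Col8a1 was still past it, while on the TPM scale Col5a2 also passed it, at -1.02. Col3a1, with the deepest counts of the family in replicate 1, 7907 in replicate 2 and 10436 in replicate 1, had a log2 ratio of -0.75. Col1a2 was at 0.00 and its sign changed between scalings, as did that of Col13a1, which was 0.92 by counts and -0.63 on the TPM scale.

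**Figure D2:**
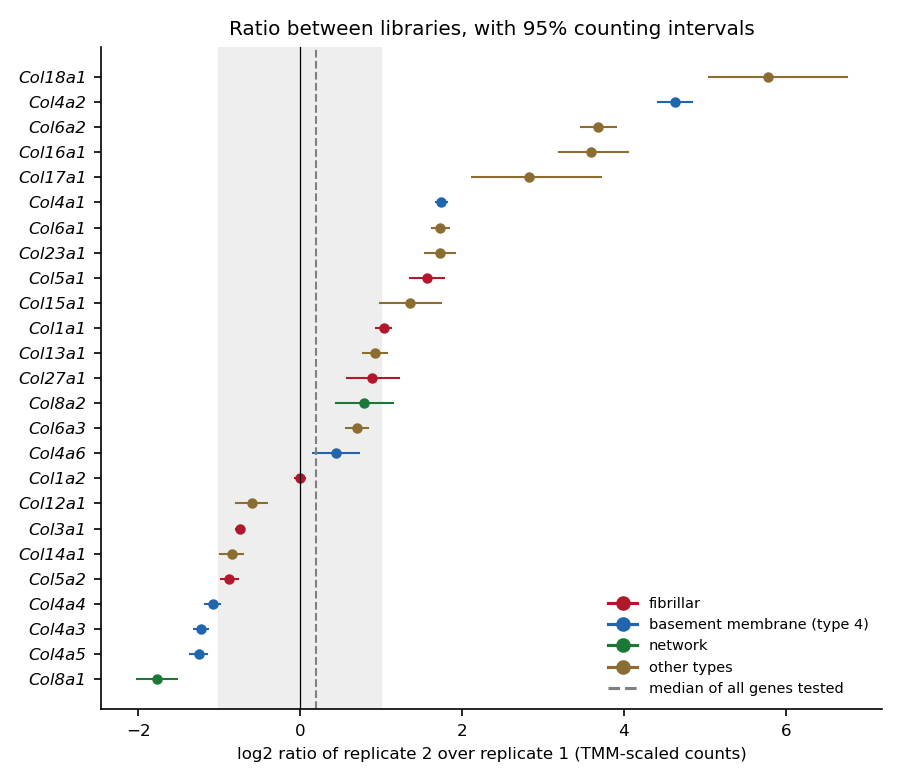
Log2 ratio of replicate 2 over replicate 1 from TMM-scaled counts for 25 collagen genes, with 95% exact counting intervals as bars; the grey band spans 2-fold either way and the dashed line is the median of all genes tested, 0.19. The 4 points left of the band are Col8a1, Col4a5, Col4a3 and Col4a4, and 11 points lie right of it up to Col18a1.

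The members' ratios were ordered by base composition, as those of all genes were. Across the 25 members the log2 ratio had a Spearman correlation of 0.847 with the mean GC content of the gene's annotated transcripts, and across 14067 genes tested it was 0.82. Genes are not independent replicates and all points share the same libraries. By region of the longest coding model, the correlation was 0.605 for the triplet repeats, 0.574 for the whole coding sequence and -0.17 for the first and second positions of all its codons. At the third codon position the correlation was 0.68, and in the bases after the stop codon it was 0.76 over the 23 members with such bases annotated. The longest run of triplets correlated at -0.01.

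Col3a1 had 28.4% GC at the third codon position and 33.0% after the stop codon, the lowest value at that position among the 25. Col4a5 had 28.8% and 31.8%. Col6a2, at the other end, had 64.9% and 54.3%. The 12 members above the members' median of GC at that position spanned 52.3 to 64.9%, and all 12 had a log2 ratio above 0, 8 of them over 2-fold higher in replicate 2. Of the 13 at or below it, 4 had a ratio above 0 and 9 below, with 3 over 2-fold higher and 4 over 2-fold lower. Among all genes tested, not split by GC content, 39.3% passed 2-fold upward and 28.2% downward, and the median log2 ratio was 0.19. Col4a2 was among those 13, at 50.9%, with a log2 ratio of 4.63.

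Set against genes of the same mean GC content over annotated transcripts, the members stood lower, not higher, in replicate 2. After the lowess trend of the ratio on GC content over all genes tested was subtracted, 22 of 25 members lay below the trend and the median was -1.15. No member was then over 2-fold higher, against 22.6% of all genes, and 13 were over 2-fold lower, or 52% against 20.5% of all genes. Col27a1 lay furthest below, at -3.85, and Col8a2 at -3.31. The 3 above the trend were Col18a1 at 0.70, Col1a2 at 0.52 and Col6a2 at 0.03. This mean weighs all annotated models alike, also those with few counts. Col1a2 was placed at 47.5% GC, but Col1a2-201, with 99.6% of its counts in replicate 2 and 99.3% in replicate 1, has 55.7%. The trend near that value is 2.93, so the place of Col1a2 above the trend depends on the models averaged. Whether GC content itself or something that goes with it lay behind this order was not tested, nor was any step of the library or tissue work.

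**Figure D3:**
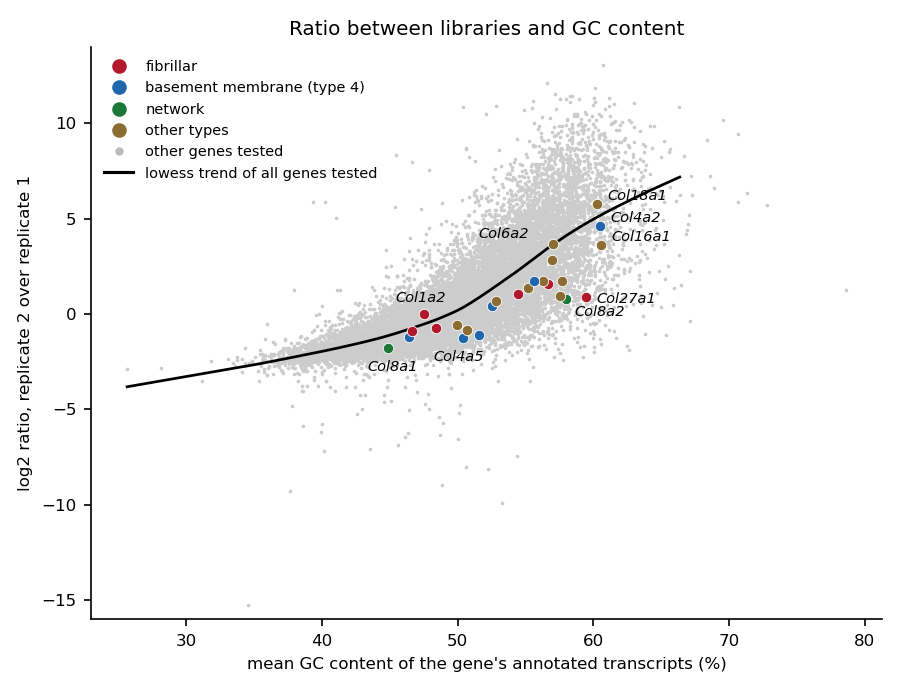
Log2 ratio of replicate 2 over replicate 1 against mean GC content of a gene's annotated transcripts in percent; grey dots are all genes tested, coloured dots are collagen genes by group, and the line is the lowess trend of all genes tested. Of 25 collagen genes, 22 lie under the line, with Col18a1 at the top and Col8a1 at the bottom of the family.

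Transcript estimates also differed between the libraries. Of the 17 members with a mean TPM of at least 10, 3 had another leading transcript in the other library (Col13a1, Col14a1 and Col6a2), and 6 had a pair of transcripts each holding at least 20% of the gene's TPM. Col13a1-206, a protein-coding model of 1204 bases with 14 exons at the 3′ end of a gene whose longest coding model has 41, held 0% of Col13a1 TPM in replicate 2 and 100% in replicate 1. Col13a1-204, of 2935 bases, held 65.0% in replicate 2 and 0% in replicate 1. The models to which the Col13a1 counts were assigned therefore differed in length, and the sign of its ratio depended on whether length entered. Whether the RNA itself differed in length was not tested.

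Col4a5-204, of 3511 bases, holds the last 21 of the gene's exons where the full Col4a5-202 has 53. It held 60.9% of Col4a5 TPM in replicate 2 and 99.8% in replicate 1, while Col4a5-202 held 28.9% and 0.25%. Col16a1-207, a non-coding model of 833 bases at the 3′ end, held 48.3% in replicate 2 and 94.9% in replicate 1. Col15a1-203, a coding model of 1755 bases at the 3′ end, held 66.4% in replicate 2 and 98.4% in replicate 1.

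A rule chosen after seeing these values took all models that share the last exon of a member's longest coding model and have at most 60% of its length. Such a model was annotated for 9 of the 25 members and held at least 20% of TPM in either library for 6. In 5 of these 6 its share was larger in replicate 1, with Col12a1 close at 83.4% in replicate 2 and 85.9% in replicate 1. The exception was Col27a1, at 45.8% in replicate 2 and 43.3% in replicate 1. Whether reads of replicate 1 lay nearer the 3′ end was not tested, since read positions are not used here.

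Col6a2 and Col6a3 showed other patterns. Col6a2-201 held 84.0% of Col6a2 TPM in replicate 2 and 33.8% in replicate 1, and Col6a2-202, a longer model, held 14.6% and 62.3%. Col6a3-206, a retained-intron model of 646 bases, held 67.4% of Col6a3 TPM in replicate 2 and 68.0% in replicate 1, but 9.90% and 10.2% of its counts, so the TPM of Col6a3 in both libraries rested mostly on a short model with few reads. Col14a1-203 held 34.0% in replicate 2 and 82.0% in replicate 1, and the shorter Col14a1-204 held 57.7% and 18.0%. Over all members, models other than protein-coding ones held 6.55% of collagen TPM in replicate 2 and 4.12% in replicate 1.

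**Figure D4:**
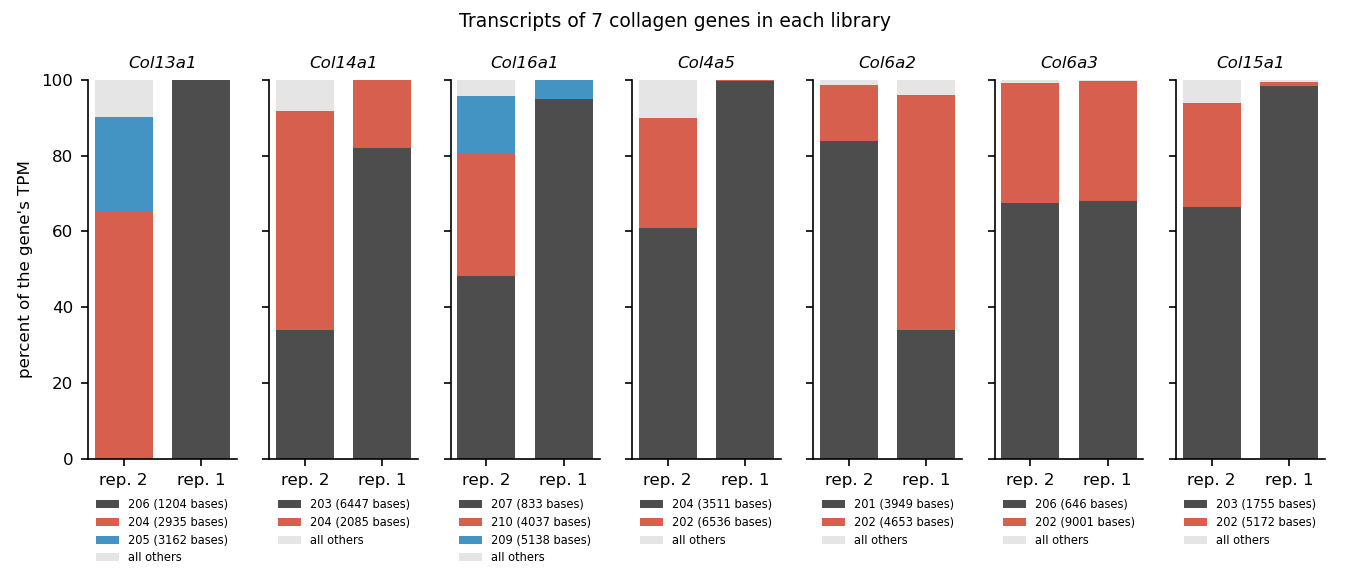
Percent of each gene's TPM held by its transcripts, replicate 2 left and replicate 1 right, for the 6 collagen genes with a pair of transcripts at 20% or more and for Col15a1; each colour is 1 transcript with its length in bases and pale grey is all others. The dark share at the foot of the Col13a1 bars is 0% in replicate 2 and 100% in replicate 1, and that of Col4a5 is 60.9% and 99.8%.

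Genes that make, process or bind collagen were listed by role, 44 in all, of which 36 passed a mean TPM of 1. Of these, 19 were over 2-fold higher in replicate 2, or 52.8% against 39.3% of all genes tested, and 7 over 2-fold lower, or 19.4% against 28.2%, and the median log2 ratio was 1.28. With the GC trend subtracted, 7 were higher, or 19.4% against 22.6% of all genes, and 8 lower, or 22.2% against 20.5%. The roles hold 5 to 9 tested genes each, so their counts below are descriptions. Prolyl hydroxylation, which makes the helix stable at body heat, had 7 of 9 genes higher (77.8% against 39.3% of all genes) and none lower (against 28.2%). With the GC trend subtracted 2 of 9 were higher (22.2% against 22.6%) and none lower (against 20.5%). Ppib, a prolyl isomerase of the complex that 3-hydroxylates proline, had 381 TPM in replicate 2, against 119 TPM in replicate 1. P4hb, the shared subunit of prolyl 4-hydroxylase, had 271 TPM in replicate 2, against 105 TPM in replicate 1. Crtap, another part of the 3-hydroxylation complex, had 60.3 TPM in replicate 2, against 33.0 TPM in replicate 1, while P4ha1, a catalytic 4-hydroxylase subunit, had 40.2 and 41.9 TPM.

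The enzymes acting on lysine went both ways. Plod2, the telopeptide lysyl hydroxylase, had 14.9 TPM in replicate 2, against 65.2 TPM in replicate 1. Plod3, which also attaches glucose, had 34.7 TPM in replicate 2, against 0.66 TPM in replicate 1. Colgalt1, which adds galactose, had 45.9 TPM in replicate 2, against 44.1 TPM in replicate 1. Of 5 genes in this role 2 were called higher (40% against 39.3% of all genes) and 1 lower (20% against 28.2%). With the GC trend subtracted 1 was higher and 1 lower (20% each, against 22.6% and 20.5%).

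Among chaperones and export factors, 2 of 7 were higher and 2 lower (28.6% each, against 39.3% and 28.2% of all genes). With the GC trend subtracted 1 was higher (14.3% against 22.6%) and 3 lower (42.9% against 20.5%). Sparc, a collagen-binding matricellular protein and the highest gene of the list, had 605 TPM in replicate 2, against 489 TPM in replicate 1. Serpinh1, the collagen chaperone Hsp47, had 189 TPM in replicate 2, against 65.8 TPM in replicate 1. Mia3, which loads procollagen into transport carriers, had 51.8 TPM in replicate 2, against 81.4 TPM in replicate 1.

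Propeptide cleavage, the step that lets fibrils form, had 3 of 5 genes higher (60% against 39.3% of all genes) and none lower (against 28.2%). With the GC trend subtracted 2 were higher (40% against 22.6%) and 1 lower (20% against 20.5%). The enhancer Pcolce2 had 142 TPM in replicate 2, against 73.2 TPM in replicate 1, its relative Pcolce had 112 and 8.19 TPM, and the C-proteinase Bmp1 had 12.5 and 0.60 TPM. Crosslinking had 3 of 5 higher (60% against 39.3%) and 1 lower (20% against 28.2%). With the GC trend subtracted none were higher (against 22.6%) and 2 lower (40% against 20.5%). Lox, the lysyl oxidase of fibrillar collagen and elastin, had 18.0 TPM in replicate 2, against 77.4 TPM in replicate 1, against 52.4 and 5.89 TPM for its relative Loxl1. Pxdn, which forms the sulfilimine crosslinks of type 4 collagen, had 19.7 TPM in replicate 2, against 10.0 TPM in replicate 1.

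Receptors had 2 of 5 higher (40% against 39.3% of all genes) and 3 lower (60% against 28.2%). With the GC trend subtracted there was 1 each (20%, against 22.6% and 20.5%). Ddr2, a receptor for fibrillar collagen, had 13.6 TPM in replicate 2, against 38.2 TPM in replicate 1. Itga1, the integrin chain that binds type 4 collagen, had 10.8 TPM in replicate 2, against 29.4 TPM in replicate 1. Ddr1, the epithelial discoidin receptor, had 17.6 TPM in replicate 2, against 3.35 TPM in replicate 1. On the TPM scale Crtap, Pxdn and Lair1 came within 2-fold, at log2 ratios of 0.87, 0.97 and -0.84, and Tll1, a relative of Bmp1, passed it at -1.13. Some relatives stood, by counts and on the TPM scale, on opposite sides of 2-fold. Examples, not a full list, are the pairs Lox and Loxl1, Plod2 and Plod3, and Ddr2 and Ddr1. With the GC trend subtracted none of these pairs did. Lox was then at -0.54 and Loxl1 at -2.07, Plod2 at -0.35 and Plod3 at 1.84, and Ddr2 at -0.83 and Ddr1 at -2.48. Bmp1 and Tll1 did stand on opposite sides after that subtraction, at 1.705 and -2.198.

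**Figure D5:**
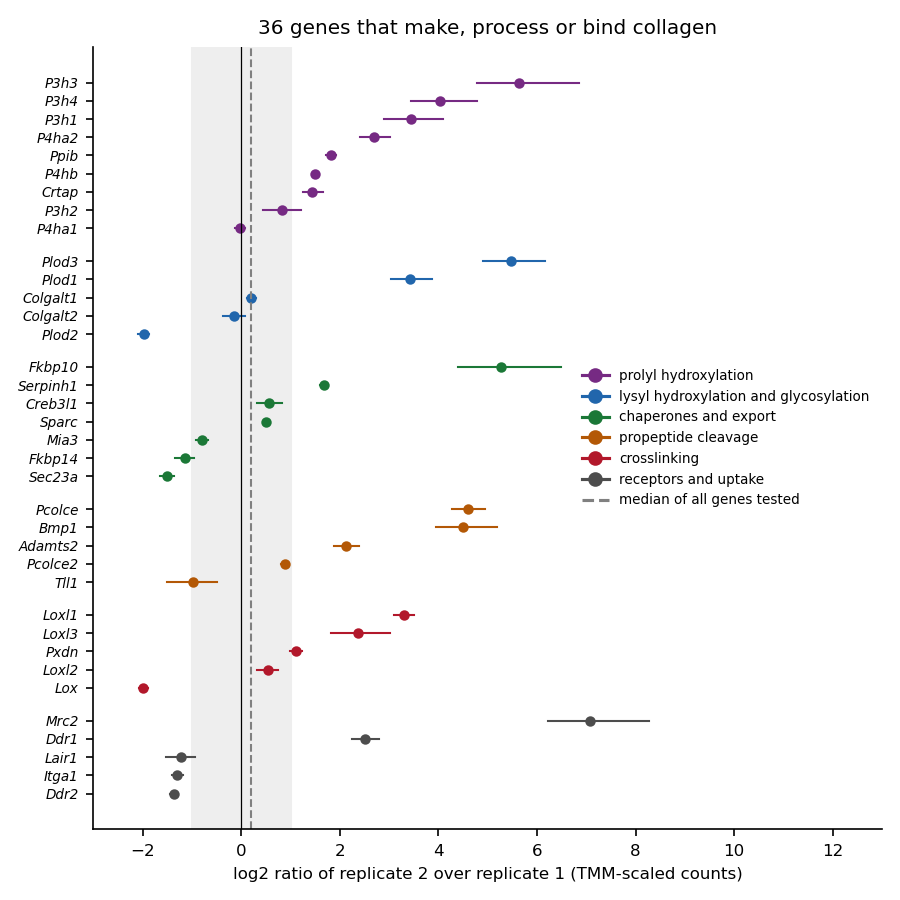
Log2 ratio of replicate 2 over replicate 1 from TMM-scaled counts for 36 genes of collagen synthesis, processing and binding, grouped by role, with 95% exact counting intervals as bars, the 2-fold band in grey and the median of all genes tested, 0.19, as the dashed line. Of these genes 19 lie right of the band and 7 left of it, with Lox and Plod2 furthest left at log2 ratios of -1.99 and -1.98.

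Markers of the cell types that lung tissue could hold moved between the libraries as well, and their part in the collagen values was not tested. All 8 fibroblast markers were above a mean TPM of 1 and summed to 4237 TPM in replicate 2, against 2031 TPM in replicate 1, with 4 past 2-fold upward and 3 downward. Inmt carried that sum, at 3674 TPM in replicate 2, against 1170 TPM in replicate 1, and the other 7 summed to 563 TPM in replicate 2, against 861 TPM in replicate 1. The 4 smooth muscle markers, all over 2-fold higher, summed to 738 TPM in replicate 2, against 88.5 TPM in replicate 1. The 4 endothelial markers summed to 1020 TPM in replicate 2, against 276 TPM in replicate 1, the 3 mesothelial markers to 84.9 and 17.6 TPM and the 3 Schwann cell markers to 7.15 and 5.14 TPM. The labelled tissue is defined by alveolar and club cell markers, all above 0 in both libraries. The 5 alveolar markers summed to 45793 TPM in replicate 2, against 1115 TPM in replicate 1. Sftpc carried the sum in replicate 2, at 39612 TPM, against 287 TPM in replicate 1, where Hopx was higher at 639 TPM. The 4 markers other than Sftpc summed to 6180.5 TPM in replicate 2, against 828 TPM in replicate 1. Pdpn, of the same list, had 90.5 TPM in replicate 2, against 126 TPM in replicate 1. Of the club cell markers, Scgb1a1 was 10.9-fold higher and Scgb3a2 had 4406 TPM in replicate 2, against 4671 TPM in replicate 1.

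Markers of cell types with collagens of their own were low, but not all were at 0. The 7 chondrocyte markers summed to 1.07 TPM in replicate 2, against 1.68 TPM in replicate 1. Matn1 was at 0 in both libraries, while Hapln1 had 12 counts in replicate 2 and 58 in replicate 1. The 4 osteoblast markers summed to 1.90 TPM in replicate 2, against 0.43 TPM in replicate 1, with Bglap and Sp7 at 0 in both. Alpl carried that sum, with 70 counts in replicate 2 and 10 in replicate 1. It averaged 1.14 TPM and was over 2-fold higher in replicate 2. The 4 squamous and basal epithelial markers summed to 0.88 TPM in replicate 2, against 1.19 TPM in replicate 1. Krt4 was at 0 in both, while Trp63 had 11 counts in replicate 2 and 58 in replicate 1. Col2a1, Col9a1, Col10a1 and Col11a1 were at or below 3 counts in both libraries.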

How the data were processed

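Lung polyA mRNA was measured in 2 libraries of 1 mouse. The members and gene lists were chosen with earlier results of these data known. The authors deposited expected counts, TPM and posterior mean TPM per gene and the percent of its gene's abundance held by each transcript, per the file headers; the labels name assembly mm10, and the sources used here name no quantifier. Expected counts of all 44 members lay within 0.005 of whole numbers and were rounded. Of 43346 genes, 42462 were matched by identifier to GENCODE M21 on GRCm38, the same assembly, for symbols, models and sequence. Of 201 member transcripts 198 were matched, and 187 had the deposited length. Whether counting used strand is not given; 18 members overlap an annotated gene on the other strand and 15 one on the same strand.

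Libraries were scaled with TMM of edgeR 4.0.16 in R 4.3.3 (factors 1.09 for replicate 2 and 0.913 for replicate 1), and log2 ratios used a prior of 0.5 counts. Genes that averaged 1 TPM or more were tested. Folds have exact Clopper-Pearson 95% intervals without the prior; they and the floor of 3 counts cover counting error only. The ratios were checked on simulated counts. Alternatives were total counts, DESeq2 1.42.0 size factors, TPM ratios with a pseudocount of 0.01 (which understates low genes), other filters, and a lowess GC trend with a span of 0.3 (statsmodels 0.14.6). Named were members with a mean TPM of at least 10, the 4 highest per group, chain partners, the 5 extreme ratios each way with at least 100 counts, and the 3 highest list genes per role; other members were named to account for all 44. Technical libraries of 1 animal carry no biological spread.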

Additional observations from a re-analysis of the deposited data

How the results depend on the processing

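The collagen share of all TPM, 0.0635%, ranged from 0.0589% to 0.0681% when each library was left out, and was 0.0621% by posterior means and 0.0601% from protein-coding transcripts alone, a choice made after seeing the data. It was 0.257% of expected counts, which are not divided by length, and 0.0815% of the TPM of nuclear protein-coding genes. The 11 members over 2-fold higher in replicate 2 (44% against 39.3% of all genes) became 14 by total counts (56% against 42.4%). They became 10 with DESeq2 size factors (40% against 38.8%) and 9 on the TPM scale (36% against 37.2%). With no filter, 21 of 43 members were higher (48.8% against 41.6%). At a mean TPM of at least 10, with fewer genes tested, 7 of 17 were higher (41.2% against 34.0%). With the GC trend subtracted 0 were higher (against 22.6%). The 4 lower ones (16% against 28.2% of all genes) became 1 by total counts (4% against 22.4%). With the GC trend subtracted they became 13 (52% against 20.5%). The median log2 ratio of 0.89 was 1.15 by total counts, 0.63 on the TPM scale, 0.70 at a mean TPM of at least 10 and -1.15, with its sign reversed, with the GC trend subtracted. The median of all genes was 0.45 by total counts and 0.01 on the TPM scale, so the members' median stood 0.70 above it by TMM and by total counts and 0.62 above it on the TPM scale. The 19 genes of collagen synthesis called higher became 10 at a mean TPM of at least 10 (47.6% against 34.0% of all genes) and 7 with the GC trend subtracted (19.4% against 22.6%). In all, 23 of 36 recomputed values stayed within 1.5 times their count, 0.1 of their median or 1 SD of their share. The shares with each library left out are among these and could not fall outside, since that SD came from the same libraries. Where not stated, the cause was not tested. No paired analysis was possible because both libraries belong to 1 group. Depth limits the 19 members below a mean TPM of 1, where 11 had at most 10 counts in each library.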

Other observations

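The last base of the glycine codons that open the triplets was G or C in 23.8% of them in Col3a1 and in 25.1% in Col1a1, against 52.7% in Col8a2 and 51.4% in Col27a1. Proline codons of the helix ended in G or C in 7.69% of cases in Col4a5 and in 37.1% in Col1a1. Across the 25 collagen genes that averaged 1 TPM or more, the log2 ratio of replicate 2 over replicate 1 had a Spearman correlation of 0.383 with the glycine share and of 0.588 with the proline share. These are descriptions across genes of the same libraries.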
